A study of Sus scrofa with 23 samples.

Results

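A set of 10 amino acid transporter genes was followed in kidney cortex RNA of 23 newborn pigs, chosen by symbol from a list of transporters of the LAT type and of the basolateral membrane: SLC3A2, SLC7A5, SLC7A6, SLC7A7, SLC7A8, SLC7A1, SLC7A2, SLC16A10, SLC43A1 and SLC43A2. All 10 were found among the 26687 gene symbols of the transcript annotation, and all 10 passed the filter on low counts. By genotype label there were 6 CFTR+/+ libraries (WT), 6 that were CFTR+/- (HET) and 11 that were CFTR-/- (CF), each from another pig, and the 12 WT and HET libraries together form the non-CF group of the study. CF here is a disruption of CFTR in the whole animal, the labels give no treatment, and piglets came from matings of CFTR+/- parents. Total RNA was sequenced after depletion of ribosomal RNA, and sex and litter are not among the labels.

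Amino acids filtered by the glomerulus are taken up by proximal tubule cells through their luminal membrane and leave through the basolateral membrane into the blood. Several of the basolateral exporters are heterodimers. A glycoprotein heavy chain, SLC3A2 (4F2hc, CD98), carries the complex to the membrane, and a light chain does the transport. The light chains here are SLC7A5 (LAT1) and SLC7A8 (LAT2), which exchange large neutral amino acids, and SLC7A7 (y+LAT1) and SLC7A6 (y+LAT2), which exchange cationic for neutral amino acids. SLC7A8 and SLC7A7 are the pair known for the kidney tubule, and loss of SLC7A7 causes lysinuric protein intolerance. SLC7A1 (CAT1) and SLC7A2 (CAT2) carry arginine, lysine and ornithine without a heavy chain. SLC16A10 (TAT1) lets aromatic amino acids pass along their gradient, and SLC43A1 (LAT3) and SLC43A2 (LAT4) do so for branched-chain amino acids, phenylalanine and methionine.

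The starts of the 4 genes on which the results turn are shown because their promoters differ in composition and in the boxes they hold. Each line gives the 250 bases before the annotated 5′ end in the Sscrofa11.1 genome, read 5′ to 3′ on the gene's own strand, with GC boxes (GGGCGG) and TATA boxes (TATAAA) on either strand in capitals. The windows are chr6:1545690-1545939 on the plus strand for SLC7A5, chr2:8919071-8919320 on the minus strand for SLC3A2, chr7:76195524-76195773 on the plus strand for SLC7A7 and chr7:75854450-75854699 on the plus strand for SLC7A8.
SLC7A5: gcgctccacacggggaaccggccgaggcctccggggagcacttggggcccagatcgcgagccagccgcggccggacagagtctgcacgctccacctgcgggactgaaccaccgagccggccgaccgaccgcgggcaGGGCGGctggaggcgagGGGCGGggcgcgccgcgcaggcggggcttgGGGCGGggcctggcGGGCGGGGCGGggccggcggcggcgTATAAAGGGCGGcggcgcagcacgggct
SLC3A2: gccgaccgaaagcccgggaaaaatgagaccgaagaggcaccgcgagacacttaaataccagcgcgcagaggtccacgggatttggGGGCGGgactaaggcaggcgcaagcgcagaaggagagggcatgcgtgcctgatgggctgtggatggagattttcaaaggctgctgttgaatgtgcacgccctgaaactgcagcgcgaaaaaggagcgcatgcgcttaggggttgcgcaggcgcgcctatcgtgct
SLC7A7: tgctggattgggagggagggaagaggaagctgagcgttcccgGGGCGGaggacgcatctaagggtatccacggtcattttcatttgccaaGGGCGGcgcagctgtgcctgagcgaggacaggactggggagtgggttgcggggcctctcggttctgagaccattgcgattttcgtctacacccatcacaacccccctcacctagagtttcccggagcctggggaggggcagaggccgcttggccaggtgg
SLC7A8: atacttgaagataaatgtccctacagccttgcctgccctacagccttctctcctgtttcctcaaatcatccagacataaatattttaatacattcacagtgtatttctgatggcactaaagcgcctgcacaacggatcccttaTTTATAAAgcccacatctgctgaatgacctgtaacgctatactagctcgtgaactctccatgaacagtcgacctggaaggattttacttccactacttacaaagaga
In the window that also takes in the 50 bases after the 5′ end, SLC7A5 had 79.0% G and C, 6 GC boxes and 1 TATA box, the last beginning 28 bases before the 5′ end and next to a GC box. SLC3A2 had 1 GC box, and SLC7A7 had 63.0% G and C and 2 GC boxes. SLC7A8 had 41.0% G and C, no GC box and TATAAA on both strands in an overlapping run. Over 24967 promoter windows of the annotation, 45.1% held a GC box and 11.5% a TATA box. TGATGNAA, the core of the element bound by ATF4 with a CEBP partner, was found in 3.03% of all windows and, among the 10 genes, in that of SLC7A1 alone. The 5′ end used is the outermost one annotated for the gene, and where a gene has several transcript models not all need begin there. A match is a description of the letters only.

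The annotation places SLC7A5 on chromosome 6 (1545940-1574298, plus strand) as 1 transcript of 10 exons and 4233 bases that is typed as noncoding, although the gene codes for LAT1 in other mammals. The other 9 are typed as protein coding. SLC7A7 (76195774-76235406) and SLC7A8 (75854700-75921931) lie on the plus strand of chromosome 7, and SLC3A2 (8892071-8919070, minus strand) lies on chromosome 2. SLC7A6, SLC7A7 and SLC16A10 overlap genes on the opposite strand (SLC7A6OS, OXA1L and LOC110260579). The library kit keeps strand, but whether the read assignment used it is not given in the sources used here, so reads of these overlaps may not be told apart.

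Libraries held between 32901281 and 52952273 estimated counts, and 3 counts, the limit that a count of 0 allows, corresponded to 0.0567 to 0.0912 CPM (counts scaled to library size). This limit covers counting error only. CFTR RNA, read first as the check of the labels, was lowest with the WT label and highest with the CF label, at 1.27 to 3.67 CPM in libraries labelled WT, 9.41 to 17.5 in those labelled HET and 12.5 to 23.5 in those labelled CF. This order is not the one a loss of CFTR RNA would give. A disrupted allele can still give RNA that is counted for the gene, and gene sums cannot tell such RNA from that of an intact allele or from exchanged labels, so directions are stated for the libraries labelled CF. Libraries also separated in an earlier look at these data along the pig numbers of the labels, pigs 1 to 6 and 12 to 18 (13 libraries, the first pig number set) against pigs 7 to 11 and 19 to 23 (10 libraries, the second). What the numbers stand for is not given in the labels, and values within each set are printed for the 10 genes. CF pig 1 and WT pig 12 stood apart in the summed CPM of immediate early genes, at 1809 and 722 against 89.7 to 268 in the other libraries. Proximal tubule markers were present in every library (summed CPM 8611 to 16704).

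Per unit of length, the heavy chain was the most abundant of the 10 genes. TPM values, which correct for transcript length, averaged 92.1 ± 22.8 (SD, n = 23) for SLC3A2. The tubular light chains followed, SLC7A8 at 58.2 ± 24.8 TPM and SLC7A7 at 51.0 ± 12.7 TPM. SLC43A2 stood at 38.9 ± 5.93 TPM, SLC16A10 at 17.2 ± 3.08 TPM and SLC7A5 at 15.6 ± 8.31 TPM. SLC7A2 (4.43 ± 0.830 TPM), SLC7A1 (3.82 ± 0.501 TPM) and SLC7A6 (3.50 ± 0.544 TPM) formed a lower tier, and SLC43A1 was the lowest at 0.615 ± 0.222 TPM. The steps from SLC43A2 to SLC16A10, from SLC7A5 to SLC7A2 and from SLC7A6 to SLC43A1 held in 23 of 23 libraries, and that from SLC3A2 to SLC7A8 in 21. For the other neighbours the mean difference in log2 TPM was smaller than its SD across the 23 libraries. These were SLC7A8 over SLC7A7 (0.11 ± 0.43, higher in 12 libraries), SLC7A7 over SLC43A2 (0.36 ± 0.38, in 19), SLC16A10 over SLC7A5 (0.28 ± 0.72, in 16), SLC7A2 over SLC7A1 (0.20 ± 0.33, in 17) and SLC7A1 over SLC7A6 (0.13 ± 0.29, in 16), and these differences were not tested. The luminal counterparts of these families, SLC3A1 (rBAT) and SLC7A9 (b0,+AT), which form the cystine transporter, averaged 57.6 ± 19.4 and 24.1 ± 6.71 TPM in non-CF libraries (n = 12).

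**Figure D1:**
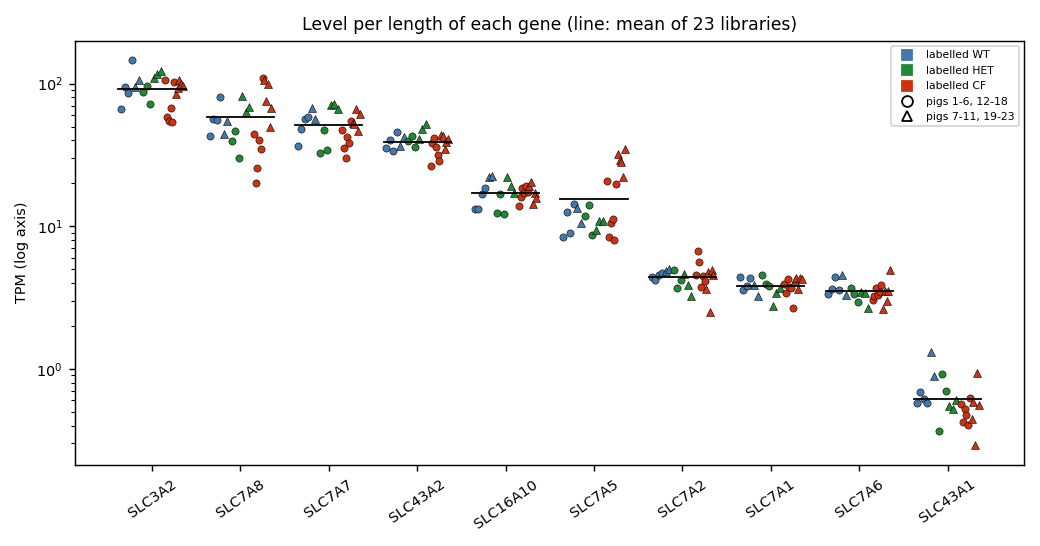
TPM (log axis) of the 10 genes, ordered by mean, with 1 point a library; colour gives the genotype label and shape the pig number set, and the line is the mean of 23 libraries. SLC3A2 lies at the top at 92.1 TPM and SLC43A1 at the bottom at 0.615 TPM.

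Between libraries labelled CF and non-CF, no gene of the 10 passed the test across all genes (the quasi-likelihood test of edgeR, p-values adjusted by Benjamini-Hochberg over 20921 genes), where 0.349% of all genes tested did. At an unadjusted p under 0.05 there were 2, SLC7A5 and SLC43A1, against a background of 13.7%. By sign, 5 values were above and 5 below 0, with a median log2 fold change of 0.03 (all genes -0.00). The 95% interval of the difference lay within 0.5 on either side of 0 for 6 genes and within 1 for 9, so a difference of more than 1 on the log2 scale lay outside the interval for all but SLC7A5. These are tissue values, in which fewer cells of a type and less RNA per cell cannot be told apart.

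**Figure D2:**
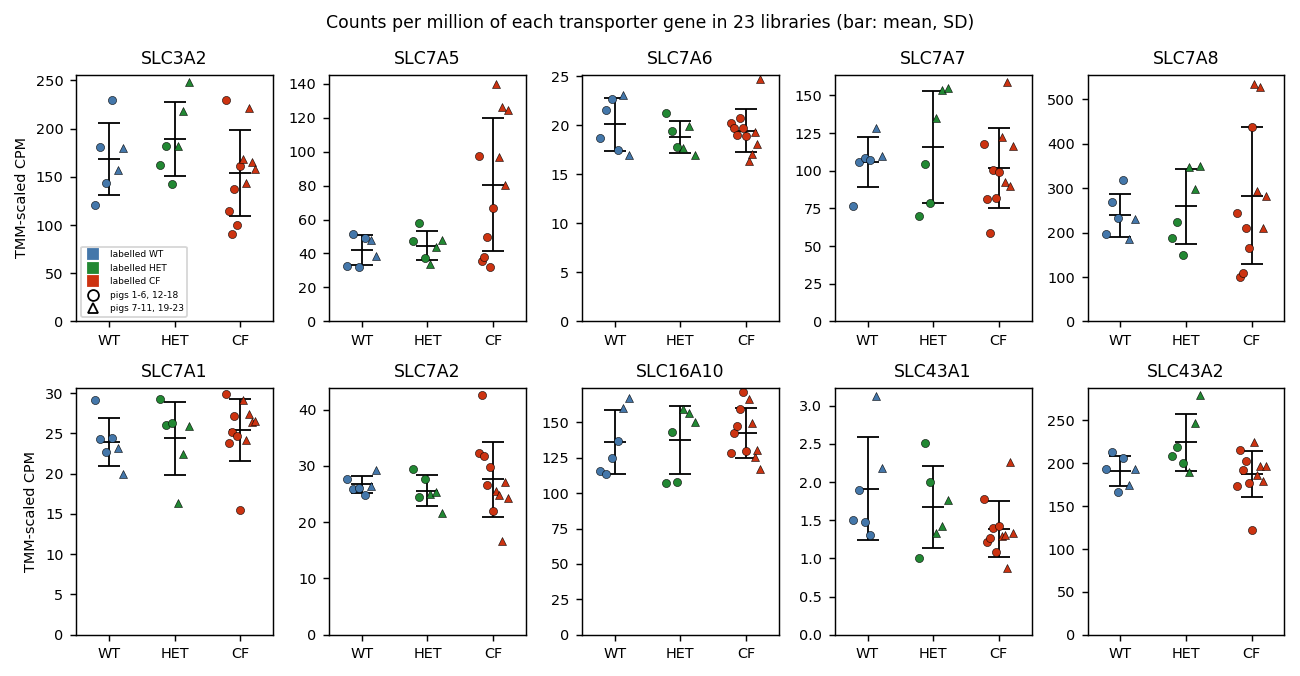
TMM-scaled CPM of each gene by genotype label, with 1 point a library, shapes for the pig number sets, and bars for mean and SD. For SLC7A5, 7 of 11 libraries labelled CF lie above all 12 others, while the labels overlap for the other genes.

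SLC7A5, the light chain that imports leucine and other large neutral amino acids into growing cells, had the largest difference of the 10. Libraries labelled WT held 32.9, 51.7, 32.1, 48.9, 48.1 and 38.4 CPM (pigs 12, 16, 17, 18, 22 and 23). Those labelled HET held 47.6, 58.0, 37.1, 33.9, 43.5 and 47.9 CPM (pigs 13, 14, 15, 19, 20 and 21). The control labels overlapped, with 4 of 6 WT libraries inside the HET range and 1 HET library above all WT libraries. The CF label held 97.6, 35.6, 37.8, 49.5, 31.9 and 66.8 CPM in pigs 1 to 6 and 139.9, 96.5, 126, 80.3 and 124 CPM in pigs 7 to 11. In words, 7 of the 11 libraries labelled CF lay above every control and pigs 2, 3, 4 and 5 lay among or below the controls. Of all genes tested, 0.932% had at least 7 libraries labelled CF above all 12 others. The means were 80.6 ± 39.3 CPM (SD, n = 11) and 43.3 ± 8.34 CPM (n = 12), and the log2 fold change was 0.89 ± 0.215 (SE) with an edgeR adjusted p of 0.0568 and a 95% interval from 0.45 to 1.34.

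The call for SLC7A5 sat at the threshold and moved with the tool and with single libraries. DESeq2 gave an adjusted p of 0.00353 (3.05% of all genes called), and edgeR without CF pig 2, 3, 4 or 5 gave 0.0315 to 0.0344. It did not pass with limma-voom (adjusted p = 0.131), in log2(TPM + 1) with limma (adjusted p = 0.240), with the pig number set as a term (edgeR adjusted p = 0.0609) or without any one of the other libraries (edgeR adjusted p up to 0.122, without CF pig 7). An exact two-sided permutation test of its mean log2 CPM gave a difference of 0.74 with p = 0.0067, and p = 0.00434 when labels were exchanged only within a pig number set. Since the gene was known from earlier results of these data, this p is no independent evidence.

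Within the first pig number set, CPM of SLC7A5 ran from 31.9 to 97.6 in 6 libraries labelled CF and from 32.1 to 58.0 in 7 controls, with a log2 fold change of 0.27 (edgeR adjusted p = 0.781). Within the second set, 5 libraries labelled CF ran from 80.3 to 139.9 CPM and 5 controls from 33.9 to 48.1 CPM, without overlap. There the log2 fold change was 1.43 ± 0.150 (SE) with an edgeR adjusted p of 0.00132, where 2.27% of all genes were called. The exact permutation p was 0.512 in the first set and 0.00794 in the second, the smallest that 252 arrangements allow. The difference between sets was 1.15 on the log2 scale with an unadjusted p of 0.00151 and an edgeR adjusted p of 0.183, a test in which 0.0191% of all genes passed. Without CF pig 1, the high library of the first set, that adjusted p was 0.0231 (0.434% of all genes called), and DESeq2 with every library gave 0.0404 (0.788%), so the call on the difference between sets moved with that library and with the tool.

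**Figure D3:**
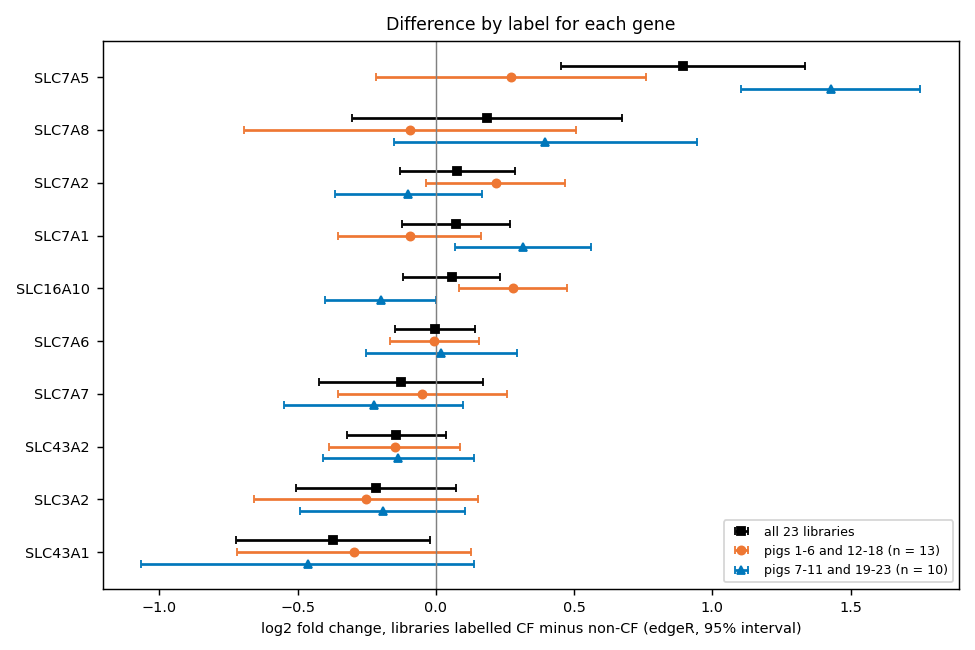
Log2 fold change of libraries labelled CF minus non-CF for each gene (edgeR, bars for the 95% interval), over all 23 libraries and within each pig number set. SLC7A5 is at 0.27 in pigs 1 to 6 and 12 to 18 and at 1.43 in pigs 7 to 11 and 19 to 23, and SLC16A10 lies on opposite sides of 0.

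Markers of other cells and states are given beside these values. The 4 distal convoluted tubule markers had log2 fold changes below 0 (median -0.62), as did 50.2% of all genes, and none passed with edgeR over all libraries, although 3 had an unadjusted p under 0.05 and DESeq2 called CALB1 and SLC12A3. Their summed CPM was 308 to 555 with the CF label and 279 to 1074 in controls, which overlap, with 11 of 11 libraries labelled CF below the control median. The 6 markers of proliferating cells also had values below 0 (median -0.27, 4 with an unadjusted p under 0.05, none called), with summed CPM of 209 to 291 against 193 to 424 and 10 of 11 libraries labelled CF below the control median. Of the 5 intercalated cell markers 3 were above 0 (median 0.08, none called with edgeR), while their summed CPM, 210.1 to 425 against 202 to 332, was above the control median in 10 of 11 libraries labelled CF, and DESeq2 called ATP6V1B1. DESeq2 also called SLC12A1 of the thick ascending limb and RHAG of the erythroid markers (list medians -0.10 and -0.09). Their edgeR log2 fold changes were -0.28 and -0.41, with 11 of 11 libraries labelled CF below the control median for each. The 10 measured immediate early genes had values above 0 (median 0.61, 3 with an unadjusted p under 0.05, none called), with 9 of 11 libraries labelled CF above the control median. Without CF pig 1 and WT pig 12, 7 of them were above 0 (median 0.06, 4 with an unadjusted p under 0.05). Their summed CPM was then 101 to 175 against 89.7 to 268, with 8 of 10 libraries labelled CF above the control median. The log2 fold change of SLC7A5 without CF pig 1 and WT pig 12 was 0.83 (edgeR adjusted p = 0.0968). In the second pig number set alone, where SLC7A5 was called, 9 of 88 marker genes were called too (2.27% of all genes), among them the distal convoluted tubule markers SLC12A3, CALB1 and TRPM6. The part of these cells and genes in the SLC7A5 values was not tested.

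SLC3A2, the heavy chain that SLC7A5 needs at the membrane, did not follow it by label. It ran from 120.4 to 229 CPM in libraries labelled WT (median 168), from 142 to 248 in those labelled HET (median 182) and from 91.1 to 229.8 in those labelled CF (median 158). The labels overlapped, although CF pigs 2, 3 and 5 (114, 91.1 and 100 CPM) lay below all 12 controls. How many of all genes had as many libraries labelled CF below the controls was not counted. The log2 fold change was -0.22 ± 0.141 (SE; edgeR adjusted p = 0.532), and -0.25 and -0.19 within the sets. In TPM, the ratio of SLC3A2 to the sum of its 4 light chains was 0.815 ± 0.106 (SD, n = 12) in non-CF libraries and 0.669 ± 0.154 (n = 11) in those labelled CF. CF pig 7 had the lowest ratio, 0.435, and HET pig 13 the highest, 0.990.

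The makeup of the 4 light chains among the 10 genes followed SLC7A5. Of the summed TPM of these 4, SLC7A5 held 9.39% ± 2.37 (SD, n = 12) in non-CF libraries and 14.98% ± 3.68 (n = 11) in those labelled CF. SLC7A7 held 43.3% ± 4.32 and 38.4% ± 7.61, SLC7A8 held 44.3% ± 4.57 and 43.6% ± 8.31, and SLC7A6 held 2.98% ± 0.767 and 3.01% ± 1.28. In the second pig number set the SLC7A5 share was 7.84% ± 1.73 in 5 controls and 17.6% ± 2.35 in 5 libraries labelled CF, against 10.5% ± 2.20 and 12.8% ± 3.19 in the first set. These shares rest on the same SLC7A5 values and were not tested again.

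SLC7A7, the tubular exporter of cationic amino acids, ran from 76.8 to 128 CPM in libraries labelled WT (median 108), from 70.2 to 155 in those labelled HET (median 119.6) and from 58.4 to 159 in those labelled CF (median 99.2). The lowest and the highest library were both labelled CF (pigs 3 and 9). The log2 fold change was -0.13 ± 0.144 (SE; edgeR adjusted p = 0.763), with -0.048 and -0.22 within the sets and -0.21 to -0.072 over fits that each omitted 1 library. The pig number set separated its levels more than the label did, with mean log2 CPM of 6.49 in the first and 6.95 in the second set. Over 23 libraries the level of SLC7A7 fell as the share of counts on noncoding transcripts rose (Spearman's rho -0.82, a description), a share that was 19.5% to 28.4% by library and highest in WT pig 12.

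SLC7A8, the partner exchanger of large neutral amino acids, had the widest range of CPM among the 10 genes. Libraries labelled WT ran from 186 to 318 CPM (median 232) and those labelled HET from 148 to 349 (median 261). Those labelled CF ran from 101 to 534 (median 244), with pigs 6, 7 and 9 (438, 534 and 527 CPM) above all controls and pigs 2 and 3 (101 and 108 CPM) below all of them. The libraries labelled CF therefore extended past the controls at both ends, and the share of all genes that did so was not counted. The SD of log2 CPM was 0.82 with the CF label and 0.39 in controls, a difference in spread that was not tested, and the log2 fold change was 0.18 ± 0.237 (SE; edgeR adjusted p = 0.800), from -0.09 in the first to 0.40 in the second set. Leaving out single libraries moved it between 0.050 and 0.27.

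SLC7A6, the second exchanger of the y+L type, varied least. Its CPM ran from 16.997 to 23.1 in libraries labelled WT, from 16.9 to 21.2 in those labelled HET and from 16.4 to 24.8 in those labelled CF, with a log2 fold change of -0.00 and a 95% interval from -0.15 to 0.14, and with -0.0050 and 0.019 within the sets. Of all genes tested, 14.7% had a smaller SD of log2 CPM across libraries.

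The cationic transporters gave small pooled differences. SLC7A1, which supplies arginine to most cells, ran from 19.96 to 29.1 CPM with the WT label, 16.3 to 29.2 with the HET label and 15.5 to 29.9 with the CF label (log2 fold change 0.07 ± 0.0944 SE, edgeR adjusted p = 0.800). It was at -0.09 in the first set and 0.32 in the second, with a difference between sets of 0.41 (unadjusted p = 0.0298, edgeR adjusted p = 0.421). SLC7A2 ran from 24.9 to 29.2 CPM with the WT label, 21.7 to 29.4 with the HET label and 16.7 to 42.6 with the CF label (log2 fold change 0.08 ± 0.101 SE, edgeR adjusted p = 0.804), and was at 0.22 in the first set and -0.10 in the second. Its highest libraries were CF pigs 2, 1, 3 and 5 (42.6, 32.3, 31.7 and 29.8 CPM), all above the controls, and its lowest was CF pig 9 (16.7 CPM). The share of all genes with as many libraries labelled CF above all controls was not counted. Controls were tight, with an SD of log2 CPM of 0.12 against 0.34 in libraries labelled CF, a difference that was not tested.

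SLC16A10, a facilitated exporter, had values of opposite sign within the sets, of which none passed the test. In the first set, libraries labelled CF ran from 128 to 171 CPM and controls from 107 to 143 CPM, and in the second they ran from 117 to 166 against 150.3 to 167 CPM. The log2 fold changes were 0.28 (edgeR adjusted p = 0.332) and -0.20 (edgeR adjusted p = 0.293), and the pooled value was 0.06 ± 0.0859 (SE; edgeR adjusted p = 0.839). The difference between sets, -0.48 on the log2 scale, had an unadjusted p of 0.00154 and an edgeR adjusted p of 0.184, and so did not pass. At an unadjusted p under 0.05, 3 of the 10 genes differed between sets (SLC7A5, SLC16A10 and SLC7A1), against 10.1% of all genes.

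SLC43A2 ran from 166 to 213 CPM with the WT label (median 193), 190.0 to 280.1 with the HET label (median 214) and 123 to 225 with the CF label (median 193). HET pigs 20 and 21 (247 and 280.1 CPM) were the highest and CF pig 6 (123 CPM) the lowest. The log2 fold change was -0.14 ± 0.0871 (SE; edgeR adjusted p = 0.496), with -0.15 and -0.14 within the sets. SLC43A1 was near the limit of useful depth, with 41 to 123 counts a library. It ran from 1.31 to 3.12 CPM with the WT label, 1.0003 to 2.52 with the HET label and 0.878 to 2.26 with the CF label. The log2 fold change was -0.37 ± 0.171 (SE; unadjusted p = 0.0381, edgeR adjusted p = 0.331), with 9 of 11 libraries labelled CF below the median of the controls, and -0.30 and -0.46 within the sets.

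Taking the labels apart added no call. In a fit of all 3 labels over 21434 genes, CF against WT called 0 of the 10 (0.336% of all genes) and had 2 at an unadjusted p under 0.05 (14% of all genes), SLC7A5 at 0.94 (edgeR adjusted p = 0.11) and SLC43A1 at -0.47 (edgeR adjusted p = 0.301). CF against HET called 0 (0% of all genes) and had 2 at an unadjusted p under 0.05 (9.83%), SLC7A5 at 0.85 (edgeR adjusted p = 0.33) and SLC43A2 at -0.26 (edgeR adjusted p = 0.406). HET against WT called 0 (0.00467%) and had 0 at an unadjusted p under 0.05 (8%), with log2 fold changes from -0.19 for SLC43A1 to 0.23 for SLC43A2. DESeq2 called 1 of the 10, SLC7A5, in CF against WT (adjusted p = 0.0278, 3.03% of all genes called) and none in CF against HET (0.322%) or HET against WT (0.154%). These pairs share libraries, so their values are given side by side only.

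Across the 23 libraries the heavy chain rose and fell with the tubular light chains. Pearson's r of log2 CPM between SLC3A2 and SLC7A7 was 0.79 and Spearman's rho 0.73 (permutation p = 2e-05 and 0.00012, adjusted over 4 light chains 8e-05 and 0.00048). For SLC7A8, r was 0.69 and rho 0.70 (permutation p = 0.00031 for each, adjusted 0.00062). Both relations held without CF pigs 3 and 5, the libraries farthest from the median of SLC3A2 (r = 0.71 and 0.59). Within the sets, r for SLC7A7 was 0.75 and 0.81, and r for SLC7A8 was 0.71 and 0.42, the last not past the threshold (adjusted permutation p = 0.456).

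For SLC7A5, the relation to the heavy chain was of another sign in each set. Over all libraries r was 0.40 and rho 0.45 (permutation p = 0.061 and 0.0335, adjusted 0.0813 and 0.0447), and r was 0.28 without CF pigs 3 and 5. In the first set r was 0.75 (adjusted permutation p = 0.0068), and in the second, where the label separated SLC7A5, it was -0.28 (adjusted permutation p = 0.557). The difference between these values was not tested. SLC7A6 gave r of -0.16 and rho of -0.21 (permutation p = 0.474 and 0.34, which are also the adjusted values). SLC3A2 and SLC7A8, like SLC7A7, were lower where the noncoding share was higher (rho -0.67 and -0.45), and the part of that share in the relations was not tested.

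**Figure D4:**
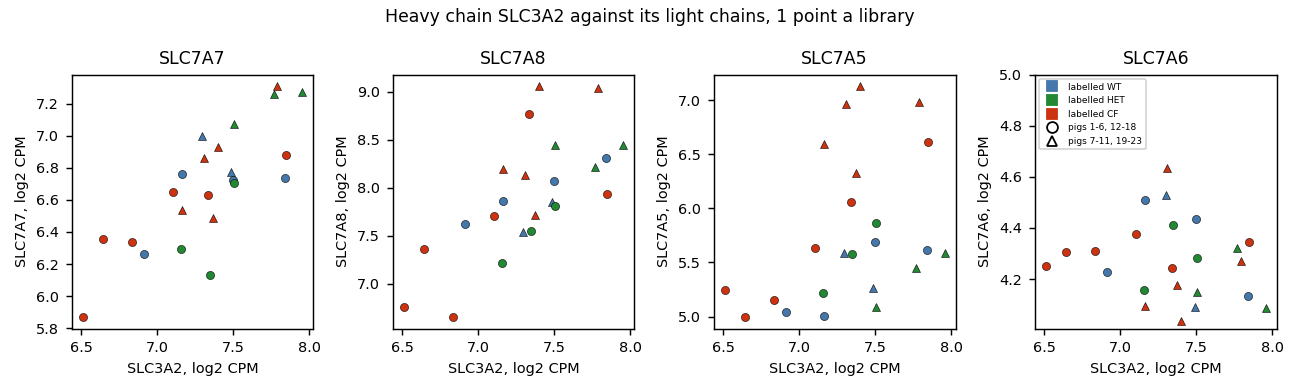
Log2 CPM of SLC3A2 against that of each light chain, with 1 point a library, colour for the genotype label and shape for the pig number set. Points rise together for SLC7A7 (r = 0.79) and SLC7A8 (r = 0.69), while SLC7A5 in CF pigs 7 to 11 (red triangles) lies above all controls, as it does in CF pigs 1 and 6, and SLC7A6 shows no rise.

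Over all 45 pairs of the 10 genes, 6 passed by Pearson's r after adjustment over the pairs and 5 by Spearman's rho. These pairs were computed after the first values had been seen. The strongest inverse pair was SLC7A8 with SLC7A2 (r = -0.80, rho = -0.79, permutation p = 1e-05, the smallest the resamples allow, and 2e-05, adjusted 0.000225 and 0.0009), with r of -0.82 without the 2 libraries farthest from the median and -0.81 and -0.67 within the sets. SLC7A7 was likewise inverse to SLC7A2 (r = -0.61, adjusted permutation p = 0.0165) and rose with SLC7A8 (r = 0.73, adjusted permutation p = 0.0012). SLC7A5 with SLC7A8 passed by r alone (r = 0.60, adjusted permutation p = 0.0170, against rho = 0.55, adjusted permutation p = 0.0541), and r was 0.40 without the 2 farthest libraries. CF pigs 2 and 9 show the pattern at both ends: pig 2 had the highest SLC7A2 (42.6 CPM) and the lowest SLC7A8 (101 CPM), and pig 9 the lowest SLC7A2 (16.7 CPM) and the second highest SLC7A8 (527 CPM).

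The genes whose levels followed each of the 10 most closely were ranked by Spearman's rho over the 23 libraries, as a description. SLC7A5 was followed by LRP3 (rho 0.94), GAS2L2 (0.93) and ADGRG1 (0.92), with 0.93, 0.91 and 0.81 in the first set and 0.94, 0.90 and 1 in the second. The 7 libraries labelled CF with SLC7A5 above all controls were also above all controls for each of these 3 genes, which had 8, 7 and 7 such libraries. The 3 genes were picked for their likeness to SLC7A5 over these same libraries, so this sharing comes with that choice. SLC3A2 was followed by CUTA (0.84), LAGE3 (0.83) and ATP5SL (0.82). SLC7A7 was followed by MKKS (0.95), SLC7A1 by NFIC (0.87), SLC7A8 by TPD52 (0.83), SLC7A2 by COL23A1 (0.83), SLC16A10 by NUDT4 (0.83), SLC43A2 by NUBP2 (0.81), SLC7A6 by NETO2 (0.77) and SLC43A1 by FAN1 (0.75).

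Amino acid shortage is known to raise SLC7A5, SLC3A2 and SLC7A1 through the transcription factor ATF4, so the listed genes of that response are given beside them. Of 22 measured, 1 rose in libraries labelled CF (0.244% of all genes rose) and none fell (median log2 fold change 0.04, all genes -0.00). It was SESN2, which encodes Sestrin2, a leucine sensor that restrains mTORC1, and the same gene was the 1 that rose among 22 genes of amino acid sensing by mTORC1, where SESN1 was called as higher too by DESeq2 and by edgeR with 2 other filters, with the pig number set as a term, and without CF pig 4, HET pig 15 or WT pig 23. SESN2 stood at 62.7 ± 32.5 CPM (SD, n = 11) with the CF label and 32.7 ± 4.39 CPM (n = 12) in controls (log2 fold change 0.94 ± 0.201 SE, edgeR adjusted p = 0.0415). Controls ran from 27.7 to 42.6 CPM, and CF pigs 1, 5, 6, 7, 8, 9, 10 and 11 (44.0 to 131 CPM) lay above all of them, 7 of these 8 being the libraries in which SLC7A5 did so. Of all genes tested, 0.932% had at least 7 libraries labelled CF above all controls. Within the sets the log2 fold change of SESN2 was 0.32 (edgeR adjusted p = 0.658) and 1.52 (edgeR adjusted p = 0.0024). Its call was lost when single libraries were left out, CF pig 6, 7, 8, 9 or 11, HET pig 14, 20 or 21, or any of the 6 WT pigs (edgeR adjusted p up to 0.0858, without CF pig 7) and when both CF pig 1 and WT pig 12 were (0.0621). It was also lost with limma-voom (adjusted p = 0.0905), in log2(TPM + 1) with limma (adjusted p = 0.152), with the Y-linked gene EIF1AY as a term (edgeR adjusted p = 0.0524) and against WT or HET alone (edgeR adjusted p = 0.109 and 0.416). Beside the value of 0.94, the log2 fold change was 0.92 without CF pig 1 and WT pig 12 and 0.90 with EIF1AY as a term. It was 1.02 against WT, 0.86 against HET, 0.83 without CF pig 9 and 0.77 without CF pig 7. With limma-voom it was 0.78, and in log2(TPM + 1) with limma 0.74.

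SLC7A5 and SESN2 rose together over the libraries (r = 0.91, rho = 0.77, permutation p = 1e-05, the smallest the resamples allow, and 3e-05), with r = 0.87 without the 2 libraries farthest from the median of SLC7A5. Within the sets r was 0.78 and 0.95, and it was 0.90 among the 11 libraries labelled CF and 0.64 among the 12 controls. This pair was computed after both genes had been seen to differ by label, so the p is a description of these libraries.

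**Figure D5:**
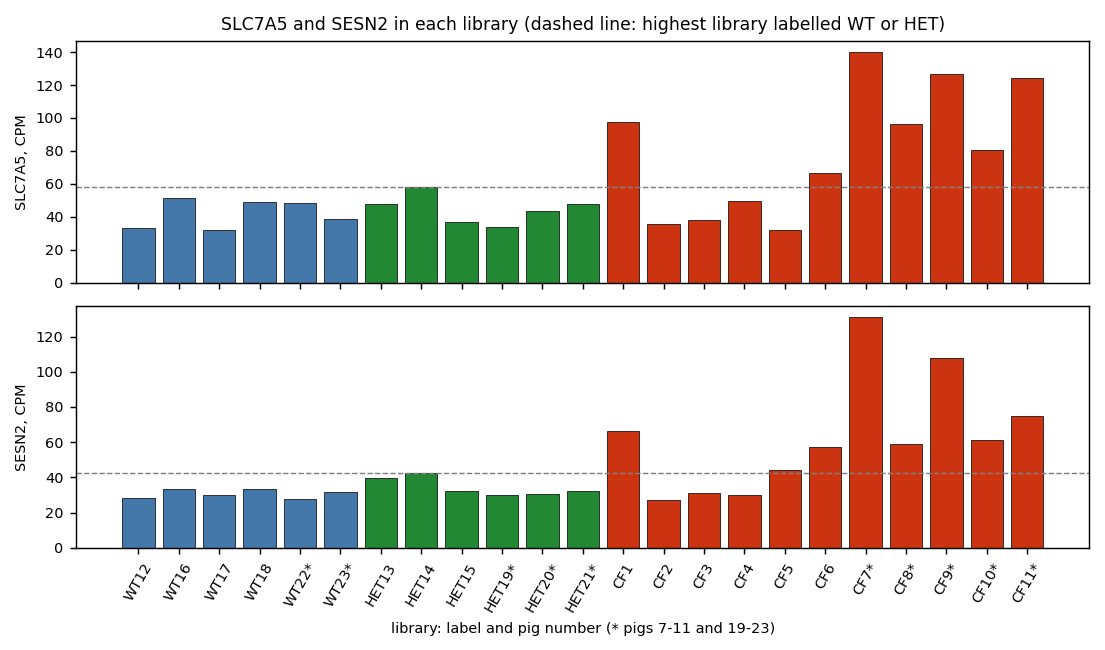
CPM of SLC7A5 and SESN2 in each library, labelled by genotype and pig number, with a dashed line at the highest control (58.0 and 42.6 CPM). Bars rise above the line in CF pigs 1 and 6 to 11 for both genes, and in CF pig 5 for SESN2 alone.

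The other amino acid transporters gave no call in the edgeR fit that also gave the values of the 10 genes, with 40 of 42 listed genes passing the filter and none called in either direction (median log2 fold change 0.03). DESeq2, with 3.05% of all genes called, called 2 of them as higher, SLC38A1 and SLC6A15, and edgeR in the second set alone, with 2.27% called, called SLC1A5 as lower. The one with the smallest p was SLC6A15, a neutral amino acid transporter, at 7.77 ± 2.001 CPM (SD, n = 11) with the CF label and 5.15 ± 1.42 CPM (n = 12) in controls (log2 fold change 0.59 ± 0.154 SE, edgeR adjusted p = 0.0752), above the control median in 11 of 11 libraries labelled CF. SLC6A15 was picked by its p, so this count is tied to that choice. It passed with DESeq2 (adjusted p = 0.0116) and with edgeR without CF pig 4 or WT pig 23 (adjusted p = 0.0400 and 0.0454). The luminal heterodimer was not called with edgeR. SLC3A1 had a log2 fold change of -0.23 (edgeR adjusted p = 0.605), with -0.089 and -0.39 within the sets. SLC7A9 was at -0.11 (edgeR adjusted p = 0.753), with 0.13 in the first set and -0.37 in the second (edgeR adjusted p = 0.848 and 0.0700). SLC16A10 and both LAT chains also carry thyroid hormone, and of 8 tested genes of thyroid hormone handling none was called in that fit. The nearest was KLF9, a target of the hormone receptor, at 84.6 ± 14.1 against 65.5 ± 8.29 CPM (log2 fold change 0.37 ± 0.0848 SE, edgeR adjusted p = 0.0508). KLF9 sat at the threshold. It passed with DESeq2 (adjusted p = 0.00645), and with edgeR under median-of-ratios or upper-quartile scaling, 2 other filters, the pig number set or EIF1AY as a term, or WT alone as the control (adjusted p from 0.0405 to 0.0492), and without CF pig 2, 3 or 4 or HET pig 13, 15 or 19 (adjusted p from 0.0299 to 0.0451). HR, a corepressor of nuclear receptors, was called as higher by DESeq2, and by edgeR in the second set alone and without CF pig 2, 3, 4 or 5.

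Transcript models of the 10 genes differed in how evenly they were used. SLC3A2, SLC7A5 and SLC43A1 have 1 model each. For SLC7A8, 1 of 3 models of 5006 bases took 90.7% ± 2.88 (SD, n = 23) of the gene's estimated counts, and for SLC16A10 the model of 10629 bases took 81.7% ± 4.09. The largest model took 58.6% ± 7.64 for SLC43A2 and 54.0% ± 16.4 for SLC7A2. No model held most of the counts on average for SLC7A6, SLC7A1 or SLC7A7, and for SLC7A7 the largest of 10 took 24.5% ± 6.16. For SLC7A6, 1 of 7 models ranged from 0% to 31.8% between libraries, and the error of such estimates was not given in the files used here.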

How the data were processed

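RNA-Seq libraries of the renal cortex came from 23 newborn pigs, and groups were taken from the genotype labels. The authors assigned reads to Sscrofa11.1 transcripts with kallisto and deposited an expected (estimated) count, without normalization, and a TPM value for each of 77689 transcripts, and 63.0% of the estimated counts were not whole. Counts and TPM were summed per gene symbol, and counts were rounded. The sources used here do not give the strand setting.

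TMM normalization, filterByExpr and the quasi-likelihood test of edgeR 4.0.16 (R 4.3.3) were applied with Benjamini-Hochberg adjustment over all genes tested and 0.05 as the limit. Libraries were grouped as CF and non-CF as in the study, which used a Mann-Whitney test (an alternative here), and a second fit held the 3 labels. Log2 CPM used a prior count of 2. DESeq2 1.42.0, limma 3.58.1 (voom, and log2(TPM + 1)) and the Mann-Whitney test were alternatives. On simulated counts, edgeR was tried in CF against non-CF, CF against WT, CF against HET and the difference between sets. DESeq2 and limma-voom were tried in CF against non-CF alone, and the other fits were not tried. The simulated counts held no general difference between the pig number sets. Exact permutation tests, and correlations with 100000 permutations, were run in Python 3.11.15 with scipy 1.17.1. P-values measure the spread between pigs.

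The genes and lists were chosen with earlier results of these data known, and the pig number sets came from an earlier look at the same libraries. The text names the 10 genes, CFTR, SLC3A1 and SLC7A9, from each pathway list the called genes or the one with the smallest p, and the genes nearest in pattern. The SESN2 relation and the pairs of the 10 genes were added after values had been seen. Marker lists covered 15 cell types and states. None of the marker genes was called in CF against non-CF as reported, and 11 of 93 were called under an alternative. These were 9 of 88 in the second pig number set alone (2.27% of all genes called) and 5 of 91 with DESeq2 (3.05%), with some called in both or under others. Apart from the values given for distal convoluted tubule, proliferating and immediate early genes, the median log2 fold changes of these lists ran from -0.10 to 0.10. No libraries agreed within sampling noise. Raw reads were not analysed here.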

Additional observations from a re-analysis of the deposited data

How the results depend on the processing

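Among the 10 genes, the CF against non-CF comparison called 0, and it called 1, SLC7A5 in each case, with DESeq2, with a filter of mean 1 CPM (adjusted p = 0.0498) and in the second pig number set alone. Over all genes these settings called 506 of 16596, 115 of 18144 and 473 of 20882. Leaving out each library in turn gave 0 to 1 called genes of the 10, 1 without CF pig 2, 3, 4 or 5. Over all genes those fits called 110 of 20959, 90 of 20971, 203 of 20956 and 60 of 20990. CF against WT called 1 with DESeq2 (3.03% of all genes called). The difference between sets called 1 with DESeq2 and without CF pig 1 and WT pig 12 together, an alternative chosen after seeing the data, and 0 to 1 with each library left out, 1 without CF pig 1. Over all genes these fits called 150 of 19032, 33 of 20914 and, without CF pig 1, 91 of 20973. The cause of these changes was not tested. CF against HET and HET against WT kept 0 under every alternative run. The adjusted p of SLC7A5 ran from 0.00132 to 0.781 over the alternatives, its Mann-Whitney value was 0.329 (unadjusted p = 0.0268, as for SLC43A1), and the Dixon test on 20 groups of libraries marked none.

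Signs turned only near 0 or within a set. SLC7A6 changed from -0.00 to 0.00 (0.000892) with a filter of 5 counts in 47% of libraries, 0.019 in the second set, 0.044 against HET alone, and -0.044 to 0.022 with each library left out. In the first set SLC7A8 was -0.094 and SLC7A1 -0.094. In the second set SLC7A2 was -0.10 and SLC16A10 -0.20. SLC7A8 ran from 0.050 to 0.27, SLC7A1 from 0.031 to 0.12, SLC16A10 from 0.028 to 0.082, and SLC7A2 from -0.0035 to 0.13 with each library left out (SLC7A2 lowest without CF pig 2). The exact test of SLC7A5 gave 0.19 in the first set alone and 0.64 to 0.85 with each library left out. The r of SLC3A2 with SLC7A5 was 0.75 in the first set and -0.28 in the second, that with SLC7A6 was 0.01 (0.00746) in the first set and 0.00 (0.000922) in TPM, and that with SLC7A8 was 0.42 in the second set.

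Over all genes, 73 were called in CF against non-CF (51 higher and 22 lower), against 506 with DESeq2, 148 with the pig number set as a term, 115 with a filter of mean 1 CPM, 46 with limma-voom, 45 with the Y-linked gene EIF1AY as a term, 8 in TPM, and 0 in the first and 473 in the second set. With upper-quartile scaling, 48 were higher and 53 lower. Each library left out gave 17 to 203. CF against HET called 0 with edgeR as reported (2107 genes at an unadjusted p under 0.05) and with limma-voom, 63 with DESeq2, 4 with the pig number set as a term, 4 with upper-quartile scaling, 1 with each of 3 other filter settings, and 0 to 3 with each library left out (3 without CF pig 2 or 5). SLC43A1, with 41 to 123 counts a library, had no adjusted p in DESeq2, and depth limits its values. No paired analysis was possible because the labels give each pig its own number and no number is shared between groups.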
